A study of Mus musculus with 6 samples.

Results

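Collagen chain genes were taken as every row of the deposited gene table whose symbol has the form Col, a type number, the letter a and a chain number. They numbered 44 of the 40993 genes in the table. Of these, 11 encode fibrillar chains, 6 the chains of type IV collagen, 9 the beaded filament and short-chain network types VI, VIII and X, and 18 other types. Averaged over the 6 libraries, 32 of the 44 reached 0.5 FPKM, and these are the genes described in detail. FPKM count sequenced fragments per length of transcript and per depth of library.

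Whole kidneys of C57BL/6 mice were sequenced, 3 samples from animals on an adenine-enriched diet and 3 from animals on a standard diet. All were 2 months old, and no genotype other than the strain is labelled. Neither the amount of adenine nor the time on the diet is stated there. The libraries are called adenine 1 to 3 and standard 1 to 3. No label states whether the samples came from separate animals, and p-values here reflect only the spread among these samples. Depth estimated from the spacing of low FPKM was 23.4, 22.7 and 17.5 M fragments in adenine 1 to 3, and 20.5, 17.5 and 17.4 M in standard 1 to 3. At the lowest depth, 3 fragments correspond to between 0.0152 FPKM for Col12a1 and 0.0668 FPKM for Col26a1 among the collagens, which covers counting error only.

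Collagens are secreted proteins whose chains wind around each other into a rope-like helix. Fibrillar collagens, above all types I and III, assemble into the banded fibrils of connective tissue and scars, and in the kidney they are made mainly by interstitial fibroblasts and pericytes. Type IV collagen forms the sheet of basement membranes. Its alpha 1 and alpha 2 chains occur in nearly all basement membranes, whereas the alpha 3, alpha 4 and alpha 5 chains form the network of the mature glomerular filter and of some tubules. Feeding adenine injures the rodent kidney through a poorly soluble product and is widely used to bring about interstitial fibrosis.

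The comparison asks which collagen chains differed between kidneys of mice on the 2 diets. The summed level of the 44 genes was 1927, 1707 and 1148 FPKM in adenine 1 to 3, against 405, 424 and 334 FPKM in standard 1 to 3. Every adenine library lay above every standard library, and the ratio of the means was 4.11. Of these 32 genes, 21 rose and 1 fell, and 10 did not pass the test (limma on log2(FPKM + 1), Benjamini-Hochberg adjusted over all 15431 genes tested, adjusted p under 0.05). Over all genes tested, 29.7% rose and 6.84% fell. The median log2 change was 1.38 over the 32 collagens and 0.25 over all genes tested.

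The filter is passed more easily by a gene that is high on adenine, and 28 of the 44 reached 0.5 FPKM in the standard libraries alone. Of these 28, 18 rose and 1 fell, by a count chosen after the values were seen. The share of all genes under this standard-only filter was not counted, so the 18 of 28 cannot be set against all genes. Col8a2, Col17a1 and Col20a1 rose but averaged 0.231, 0.132 and 0.293 FPKM on standard diet, and the class counts below include them. The standard-only filter is in turn passed more easily by a gene that is high on standard diet, such as Col19a1. Every adenine library lay above every standard library for 22 of the 32 genes and below for 1, against 44.4% and 11.8% of all genes tested. A rise of at least 1 on the log2(FPKM + 1) scale was called for 18 of the 32, against 9.99% of all genes tested. The split of all genes depends on scaling. Median-of-ratios scaling took the median log2 change of all genes tested from 0.25 to -0.0042. It gave 20 collagens higher and 3 lower, against 16.8% and 15.2% of all genes tested. With the replicate numbers of the libraries also fitted as a block, 18 were higher and 1 lower, against 17.3% and 16.8%.

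Among the 21 genes that rose, adenine 3 was the lowest of the adenine libraries for 20, and adenine 1 was the highest for 16. Over all 4581 genes that rose, adenine 3 was the lowest for 3771 and adenine 1 the highest for 3680.

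**Figure D1:**
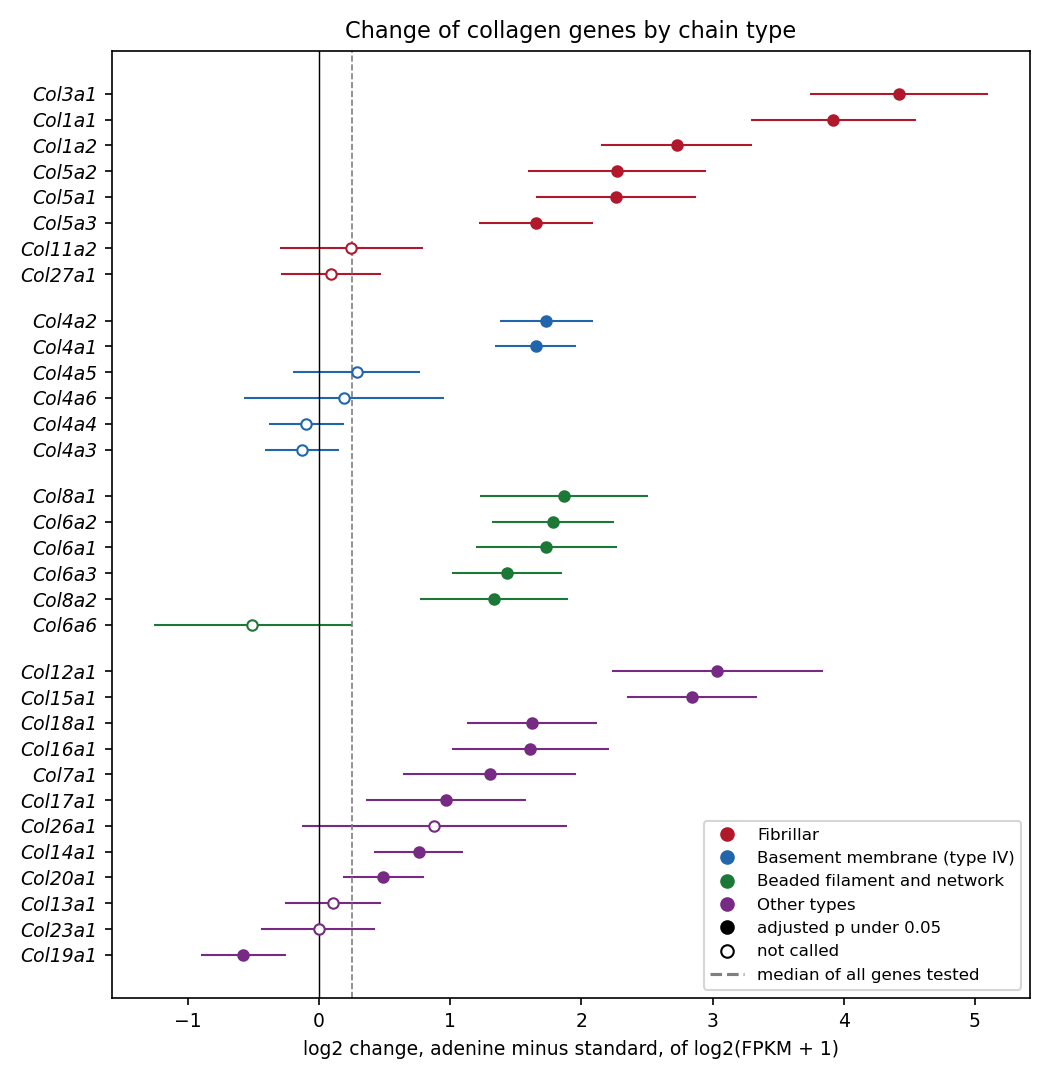
Log2 change (adenine minus standard, on log2(FPKM + 1)) of the 32 collagen genes described, grouped by chain type. Points are limma estimates, bars their 95% confidence intervals, filled points have an adjusted p under 0.05, the solid line marks 0 and the dashed line the median of all genes tested. The 6 highest fibrillar points lie at 1.65 to 4.42, whereas 4 of the 6 type IV points lie at -0.13 to 0.29.

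Among fibrillar chains, Col3a1 and Col1a1 had the highest log2 changes of the 32 genes. Of 8 fibrillar genes tested, 6 rose, where 29.7% of all genes tested did, and 2 did not pass. The 8 genes had a median log2 change of 2.26 (2.00 after median-of-ratios scaling). All 6 that rose were called in every alternative that tested them. Col3a1, the single chain of type III collagen (chr1:45311538-45349706, GRCm38, plus strand), was at 580.5, 507 and 267 FPKM in adenine 1 to 3, against 20.5, 19.4 and 17.5 FPKM in standard 1 to 3. The lowest adenine library was far above the highest standard library. The means were 451 ± 164 and 19.1 ± 1.52 FPKM (SD, n = 3 each), a 23.6-fold difference, with a log2 change of 4.42 (SE 0.283, limma adjusted p = 0.00295).

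Col1a1, the chain present in pairs in type I collagen (chr11:94936224-94953042), was at 149, 134 and 82.3 FPKM in adenine 1 to 3, against 8.42, 7.59 and 5.03 FPKM in standard 1 to 3. The groups did not overlap, and the 17.4-fold difference of means corresponds to a log2 change of 3.92 (SE 0.265, limma adjusted p = 0.00295). Its partner Col1a2 (chr6:4504814-4541543) was at 236, 200.5 and 134 FPKM in adenine 1 to 3, against 31.4, 29.8 and 21.2 FPKM in standard 1 to 3. The groups were again apart, but the difference of means was smaller, at 6.92-fold (log2 change 2.73, SE 0.241, limma adjusted p = 0.00329).

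The bases before the transcription start are shown for Col3a1 and Col1a2, both fibrillar chains. The stretches shown differ in length, and no link between their letters and the changes was tested. Sequences are from RefSeq (GRCm38.p6) on the plus strand, 5′ to 3′, with capitals for TATAAA or GGGCGG. The Col3a1 stretch is chr1:45311288-45311537, the 250 bases before its start, and holds 1 TATAAA match. The Col1a2 stretch is chr6:4505370-4505492, the 123 bases at -248 to -126 from its RefSeq start that lie outside annotated exons, and holds 2 GGGCGG matches. This stretch lies inside the deposited span of Col1a2, which starts upstream of the RefSeq start.
Col3a1: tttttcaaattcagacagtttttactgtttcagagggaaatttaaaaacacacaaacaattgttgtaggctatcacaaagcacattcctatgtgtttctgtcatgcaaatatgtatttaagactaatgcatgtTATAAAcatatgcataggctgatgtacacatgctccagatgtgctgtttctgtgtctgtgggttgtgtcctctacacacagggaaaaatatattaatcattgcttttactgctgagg
Col1a2: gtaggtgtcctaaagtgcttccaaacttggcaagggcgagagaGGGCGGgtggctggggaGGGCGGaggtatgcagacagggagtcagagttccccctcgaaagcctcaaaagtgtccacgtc
In windows of 250 bases before the start, available for 35 of the 44 collagen genes (38 windows), TATAAA was found in 5 windows, or 13.2%, against 12.4% of all 32851 windows. CCAAT was found in 13 collagen windows (34.2%, against 33.8% of all) and GGGCGG in 22 (57.9%, against 32.7% of all). Both strands were searched and matches of different motifs could share bases. The Col1a2 window was among the 13 with CCAAT, in bases not shown. A match is a description of the letters only.

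Type V collagen, which joins type I in fibrils and limits their width, rose in all 3 of its chains. Col5a2, which lies near Col3a1 on chromosome 1 (chr1:45374321-45503282, minus strand), was at 45.0, 39.4 and 20.8 FPKM in adenine 1 to 3, against 5.23, 6.25 and 7.01 FPKM in standard 1 to 3. Each adenine library was above the standard libraries, and the log2 change was 2.27 (SE 0.283, limma adjusted p = 0.00508). Col5a1 averaged 15.3 ± 4.72 FPKM on adenine and 2.33 ± 0.539 FPKM on standard diet (SD, n = 3 each), a log2 change of 2.26. Col5a3 averaged 5.20 ± 0.966 FPKM on adenine and 0.971 ± 0.29 FPKM on standard diet, a log2 change of 1.65.

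Col27a1 and Col11a2 did not pass. Col27a1, a fibrillar chain known mostly from cartilage, was at 15.2, 13.4 and 10.8 FPKM in adenine 1 to 3, against 14.3, 11.8 and 10.6 FPKM in standard 1 to 3. The groups overlapped, and the log2 change of 0.09 had a 95% interval of -0.29 to 0.47 (limma adjusted p = 0.663). Col11a2, a chain of type XI collagen, was at 0.877, 1.01 and 0.375 FPKM on adenine, against 0.428, 0.20 and 0.825 FPKM on standard diet, which also overlapped (log2 change 0.24, 95% interval -0.30 to 0.79). In mean level, Col1a1 was thus above Col27a1 in the adenine libraries, at 122 and 13.1 FPKM, and below it in the standard libraries, at 7.01 and 12.2 FPKM.

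**Figure D2:**
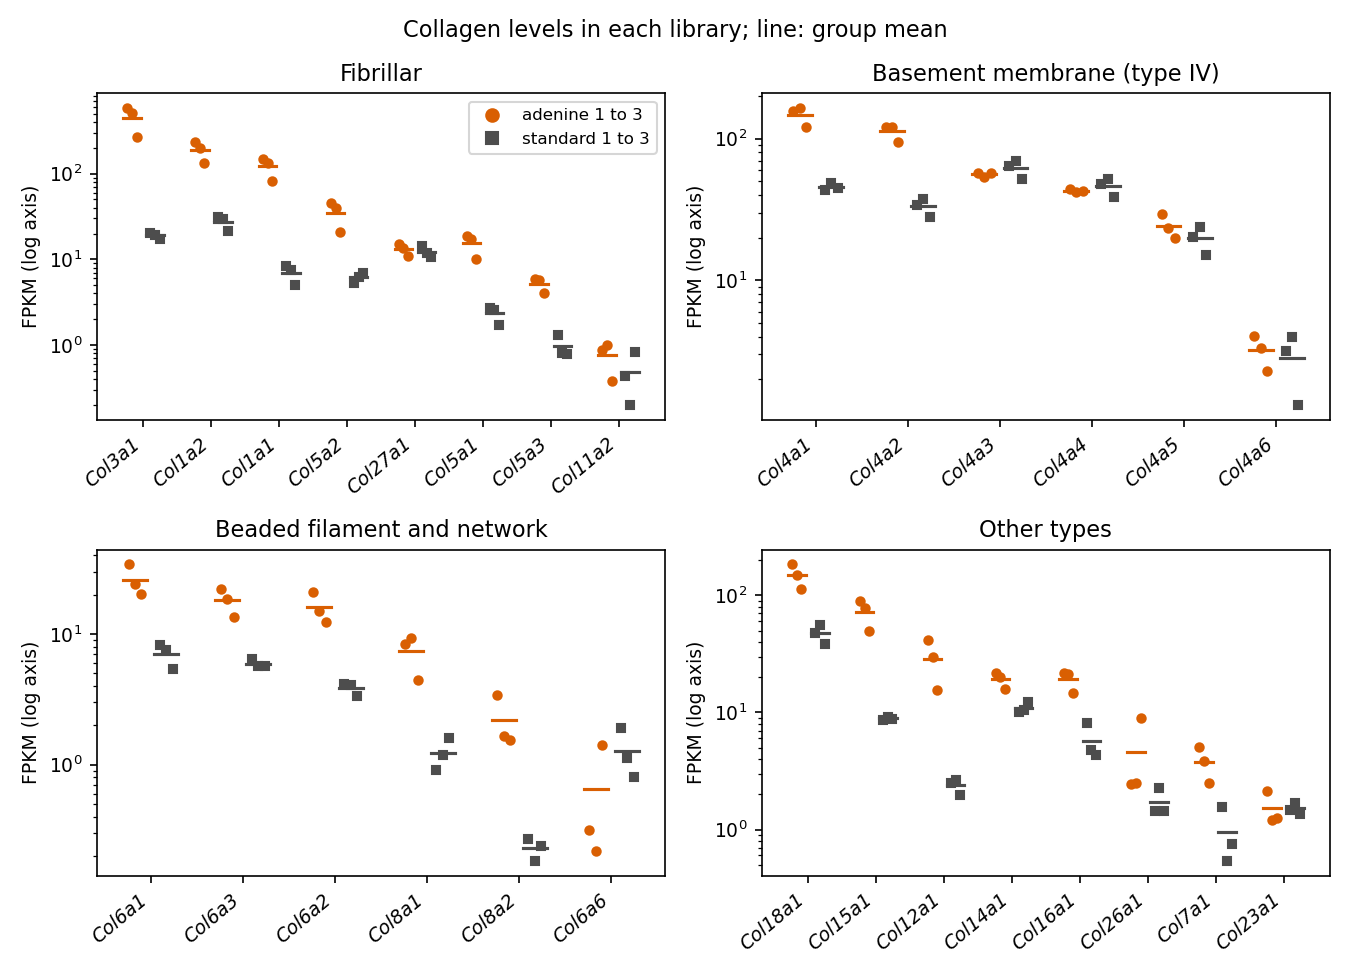
FPKM (log axis) of collagen genes in each library by chain type, with the 8 highest by mean drawn for the other types. Circles are adenine 1 to 3 and squares standard 1 to 3, in that order from left to right for each gene, and lines are group means. The Col3a1 circles lie at 267 to 580.5 FPKM and its squares at 17.5 to 20.5 FPKM, while the Col4a3 circles and squares overlap.

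Type IV chains split by pair. Of the 6 genes, Col4a1 and Col4a2 rose, a share near the 29.7% of all genes tested. Col4a3, Col4a4, Col4a5 and Col4a6 did not pass. The median log2 change of the class was 0.24, close to that of all genes tested. Col4a1 (chr8:11198423-11312826) was at 156, 164 and 122 FPKM in adenine 1 to 3, against 43.7, 48.8 and 44.7 FPKM in standard 1 to 3. Col4a2 (chr8:11312805-11449287) was at 121, 122 and 95.2 FPKM on adenine, against 34.1, 37.8 and 28.2 FPKM on standard diet. For both chains every adenine library was more than 2-fold above the highest standard library. The folds of means were 3.21 for Col4a1 and 3.39 for Col4a2, with log2 changes of 1.65 (SE 0.129) and 1.73 (SE 0.148) and limma adjusted p = 0.00296 and 0.00324.

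Col4a3, the glomerular chain that carries the Goodpasture antigen (chr1:82586921-82722059), was at 56.9, 54.0 and 57.0 FPKM in adenine 1 to 3, against 64.2, 69.2 and 52.1 FPKM in standard 1 to 3. Col4a4, its partner chain (chr1:82448423-82586849), was at 44.3, 42.1 and 42.7 FPKM on adenine, against 47.9, 52.3 and 39.0 FPKM on standard diet. In both genes standard 3 was below the adenine libraries and the other two standard libraries were above them. The log2 changes were -0.13 for Col4a3 (95% interval -0.41 to 0.15, limma adjusted p = 0.392) and -0.10 for Col4a4 (-0.38 to 0.19, adjusted p = 0.533). After median-of-ratios scaling both were called lower, at -0.43 (adjusted p = 0.0273, range over the alternatives 0.0273 to 0.782) and -0.39 (0.031, range 0.031 to 0.97). With the replicate block and that scaling together the adjusted p was 0.0508 for Col4a3 and 0.0521 for Col4a4, and each was called in 1 of 15 alternatives. The log2 change was negative under each scaling, so the scaling changed the call and not the sign.

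Col4a5, the third chain of the glomerular network, averaged 24.2 ± 4.81 FPKM on adenine and 19.7 ± 4.41 FPKM on standard diet (SD, n = 3 each), with overlapping groups and a log2 change of 0.29 that became -0.0013 after median-of-ratios scaling. Col4a6, which pairs with Col4a5 in some epithelial basement membranes, averaged 3.22 ± 0.895 FPKM on adenine and 2.82 ± 1.36 FPKM on standard diet. Neither was called in any alternative.

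The 6 type IV genes lie in 3 head-to-head pairs, and the members of a pair had log2 changes close to each other. Col4a1 and Col4a2 overlap by 22 bases at their starts in the deposited coordinates, and fragments from those bases cannot be assigned without strand, which the sources used here do not state. The starts of Col4a4 and Col4a3 are 71 bases apart, and those of Col4a6 and Col4a5 are 1308 bases apart. The whole stretch between Col4a4 and Col4a3, which serves as the upstream region of both genes, is shown on the minus strand from RefSeq (chr1:82586850-82586920, GRCm38.p6). It holds no match to the searched letters, so it has no capitals.
between Col4a4 and Col4a3: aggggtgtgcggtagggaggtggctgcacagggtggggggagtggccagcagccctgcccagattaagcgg

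The ratio of chains within a library removes its scaling. Col4a3 over Col4a1 was 0.366, 0.33 and 0.467 in adenine 1 to 3, against 1.47, 1.42 and 1.17 in standard 1 to 3. The glomerular chain was thus below the common chain in every adenine library and above it in every standard library, a log2 difference of -1.81 (exact permutation p = 0.10, two-sided, the smallest that 3 against 3 allows). Col1a1 over Col1a2 was 0.632, 0.669 and 0.615 on adenine, against 0.268, 0.254 and 0.237 on standard diet, again without overlap (log2 difference 1.34, exact permutation p = 0.10). Col4a1 over Col4a2 was 1.28, 1.34 and 1.28 on adenine, against 1.28, 1.29 and 1.59 on standard diet, and the groups overlapped (exact permutation p = 0.50). Col3a1 over Col1a1 was 3.89, 3.78 and 3.24 on adenine, against 2.43, 2.56 and 3.47 on standard diet, with overlap through standard 3 (exact permutation p = 0.20).

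Further ratios of partner chains were computed after the values were seen. Col4a3 over Col4a4 stayed within 1.28 to 1.33 on adenine and 1.32 to 1.34 on standard diet. Col6a1 over Col6a2 was 1.60 to 1.64 on adenine and 1.60 to 1.99 on standard diet. The groups overlapped for these and for Col4a5 over Col4a6, Col6a3 over Col6a1 and Col5a1 over Col5a2. The family held 11 tests with the class shares, and the lowest Benjamini-Hochberg adjusted exact permutation p was 0.275, so none passed adjustment.

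**Figure D3:**
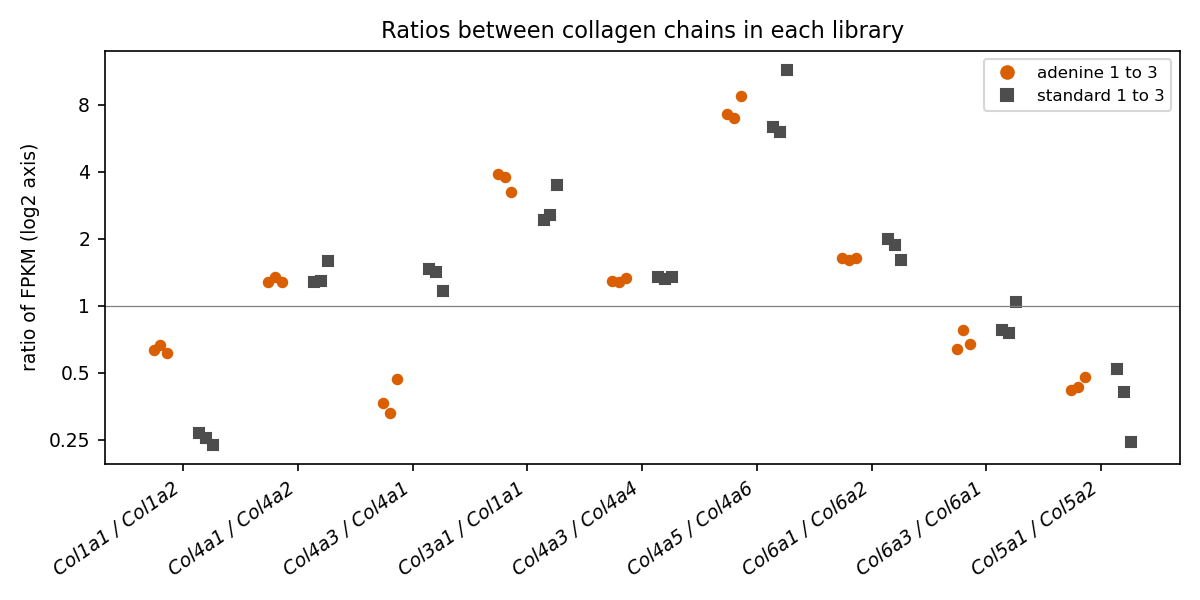
Ratio of the FPKM of chains that assemble or occur together (log2 axis), for each library. Circles are adenine 1 to 3 and squares standard 1 to 3, from left to right for each ratio. The groups are apart for Col1a1 over Col1a2 (0.615 to 0.669 on adenine, 0.237 to 0.268 on standard diet) and Col4a3 over Col4a1, and overlap for the other 7 ratios.

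The make-up of the collagen signal differed accordingly. Fibrillar chains made up 54.7, 53.8 and 46.1% of the summed collagen FPKM in adenine 1 to 3, against 20.9, 18.6 and 19.4% in standard 1 to 3. Type IV chains made up 21.4, 24.0 and 29.5% on adenine, against 52.7, 55.7 and 54.0% on standard diet. Neither share overlapped between the diets, with differences of 31.9 and -29.2 percentage points (exact permutation p = 0.10 each, two-sided). Type IV chains nevertheless summed to more FPKM on adenine, 411, 409 and 339, against 213, 236 and 180.4 on standard diet, through Col4a1 and Col4a2. By mean FPKM, Col3a1 ranked 1 of the 44 genes on adenine and 8 on standard diet, and Col4a3 ranked 8 on adenine and 1 on standard diet. Other types made up 18.2 to 19.6% on adenine and 20.8 to 21.4% on standard diet, and network chains outside type IV 4.05 to 4.72% on adenine and 4.74 to 5.57% on standard diet. Both shares were lower on adenine with no overlap of the libraries, and neither difference was tested.

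**Figure D4:**
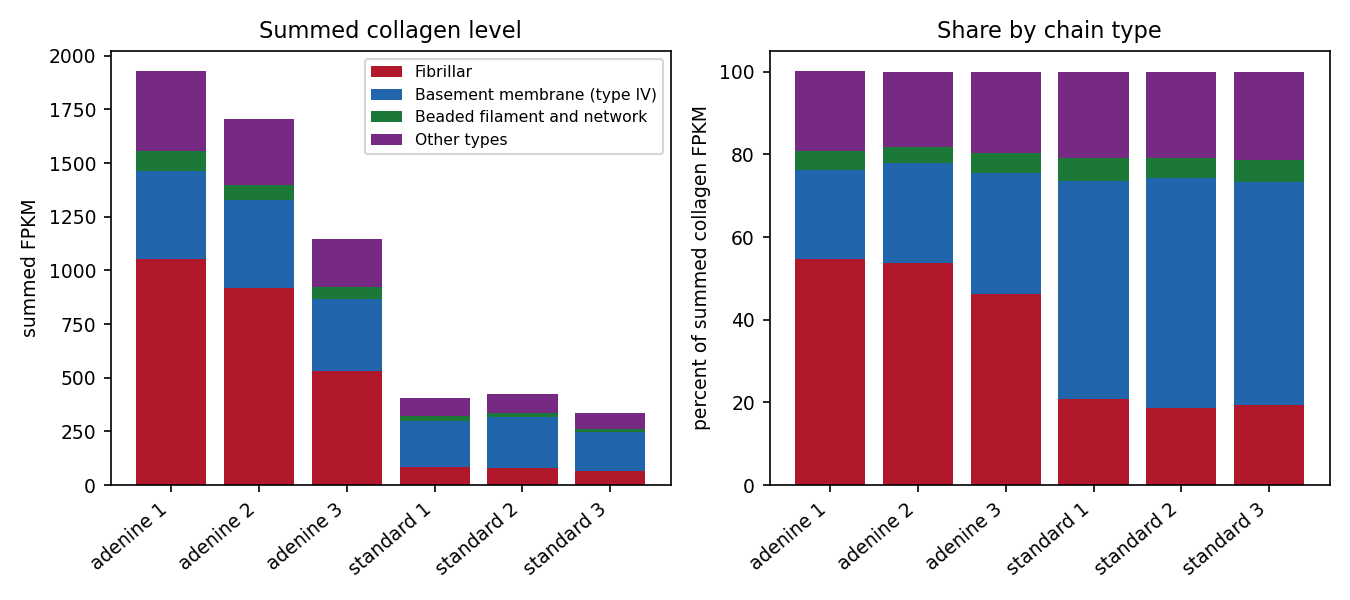
Summed FPKM of the 44 collagen genes by chain type (left) and the percent of that sum in each chain type (right) for each library. The bars for adenine 1 to 3 reach 1148 to 1927 FPKM with 46.1 to 54.7% fibrillar, and those for standard 1 to 3 reach 334 to 424 FPKM with 18.6 to 20.9% fibrillar.

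Among beaded filament and network chains, 5 of 6 tested rose, where 29.7% of all genes tested did. The median log2 change was 1.58. Col8a2, among the 5, passed the filter through its adenine libraries. Type VI collagen forms thin beaded filaments around cells, and its main chains moved by like amounts. Col6a1 was at 34.1, 24.0 and 20.1 FPKM in adenine 1 to 3, against 8.19, 7.58 and 5.41 FPKM in standard 1 to 3 (log2 change 1.73, SE 0.224, limma adjusted p = 0.00543). Col6a2 was at 20.8, 15.0 and 12.3 FPKM on adenine, against 4.11, 4.06 and 3.38 FPKM on standard diet (log2 change 1.78, SE 0.195, limma adjusted p = 0.00419). Col6a3, the long chain that completes the assembly, was at 21.9, 18.6 and 13.6 FPKM on adenine, against 6.40, 5.73 and 5.66 FPKM on standard diet (log2 change 1.43, SE 0.176, limma adjusted p = 0.00489). None of these chains overlapped between the diets, and adenine 1 was the highest library for each.

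Col6a6, a chain related to Col6a3, did not pass. It was at 0.315, 0.219 and 1.42 FPKM in adenine 1 to 3, against 1.91, 1.12 and 0.809 FPKM in standard 1 to 3. Adenine 3 alone reached the standard range, and the log2 change of -0.51 had limma adjusted p = 0.236. Without adenine 3 it was called lower, at -0.82 (adjusted p = 0.0358, range over the alternatives 0.0358 to 0.507).

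Type VIII collagen, a short-chain network former of vessel walls and mesangium, rose in both chains. Col8a1 was at 8.41, 9.26 and 4.48 FPKM in adenine 1 to 3, against 0.916, 1.18 and 1.61 FPKM in standard 1 to 3 (log2 change 1.87, SE 0.267, limma adjusted p = 0.00646). Col8a2 averaged 2.20 ± 1.05 FPKM on adenine and 0.231 ± 0.0433 FPKM on standard diet (SD, n = 3 each), a 9.53-fold difference of means with a log2 change of only 1.33, since the pseudocount of 1 compresses low genes.

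Of 12 other types tested, 8 rose, 1 fell and 3 did not pass, where 29.7% of all genes tested rose and 6.84% fell. The 12 had a median log2 change of 0.93. Col17a1 and Col20a1, among the 8, passed the filter through their adenine libraries. The multiplexins Col18a1 and Col15a1, basement membrane collagens with sugar side chains, had the highest levels of these types on adenine. Col18a1, the precursor of endostatin (chr10:77052178-77166548), was at 184, 149 and 114 FPKM in adenine 1 to 3, against 47.9, 55.4 and 38.4 FPKM in standard 1 to 3 (log2 change 1.62, SE 0.206, limma adjusted p = 0.00521). Col15a1 (chr4:47208161-47313167) was at 88.7, 78.1 and 49.9 FPKM on adenine, against 8.68, 9.21 and 8.86 FPKM on standard diet. Col15a1 was thus even across the standard libraries and apart from the adenine libraries, with an 8.10-fold difference of means (log2 change 2.84, SE 0.206, limma adjusted p = 0.00295).

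Fibril-associated collagens with interrupted helices sit on the surface of fibrils. Col12a1 (chr9:79598991-79718831) was at 41.5, 29.5 and 15.4 FPKM in adenine 1 to 3, against 2.52, 2.67 and 1.98 FPKM in standard 1 to 3. This 12.0-fold difference of means (log2 change 3.03, SE 0.335, limma adjusted p = 0.00419) was the third highest log2 change of the 32 genes. Col14a1, its close relative, was at 21.9, 20.1 and 15.9 FPKM on adenine, against 10.1, 10.4 and 12.2 FPKM on standard diet. Its groups were apart by a smaller margin (log2 change 0.76, SE 0.142, limma adjusted p = 0.0114). On adenine Col12a1 averaged 28.8 FPKM and Col14a1 19.3 FPKM, whereas on standard diet Col12a1 averaged 2.39 FPKM and Col14a1 10.9 FPKM. The call of Col14a1 ended without adenine 2 (adjusted p = 0.05) and with the replicate block and median-of-ratios scaling together (log2 change 0.48, adjusted p = 0.0715, range over the alternatives 0.00436 to 0.0715).

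Col16a1 averaged 19.3 ± 4.02 FPKM on adenine and 5.74 ± 2.09 FPKM on standard diet (SD, n = 3 each), a log2 change of 1.61. Col20a1 averaged 0.813 ± 0.0646 FPKM on adenine and 0.293 ± 0.0376 FPKM on standard diet, a log2 change of 0.49 (limma adjusted p = 0.0297). Its call ended in the model blocked on replicate numbers (adjusted p = 0.0554), after median-of-ratios scaling (0.0553) and with both together (0.0953). It also ended with quantile normalization (0.487) and without standard 1, 2 or 3 (0.0784, 0.0757 and 0.0867). Col20a1 was thus called in 6 of the 13 alternatives that tested it (range 0.0128 to 0.487).

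Col19a1, a fibril-associated chain of low level, was the 1 collagen that fell in the main test. Its mean was 0.216 FPKM on adenine and 0.814 FPKM on standard diet, so it passed the filter through its standard libraries. It was at 0.137, 0.220 and 0.290 FPKM in adenine 1 to 3, against 0.718, 0.868 and 0.855 FPKM in standard 1 to 3. Every adenine library was below the standard libraries, and 3 fragments correspond to 0.0329 FPKM for this gene at the lowest depth. The log2 change was -0.58 (SE 0.136, limma adjusted p = 0.0211), and the call ended without adenine 2 (adjusted p = 0.0779, range over the alternatives 0.00989 to 0.0779).

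Collagens of epithelial anchorage also rose. Col7a1, which forms the anchoring fibrils under stratified epithelia, averaged 3.80 ± 1.30 FPKM on adenine and 0.948 ± 0.539 FPKM on standard diet (SD, n = 3 each), a log2 change of 1.30 (limma adjusted p = 0.0159). Its adjusted p was 0.0576 without adenine 2, 0.054 without standard 2 and 0.0548 without standard 3 (range over the alternatives 0.00854 to 0.0576). Col17a1, the transmembrane collagen of hemidesmosomes, averaged 1.29 ± 0.696 FPKM on adenine and 0.132 ± 0.0887 FPKM on standard diet, a log2 change of 0.97 (limma adjusted p = 0.0289). Its call ended without adenine 1 or any of the standard libraries, with quantile normalization, and with the block and median-of-ratios scaling together (range over the alternatives 0.00409 to 0.108).

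Col26a1, an unclassified collagen, was at 2.45, 2.52 and 8.91 FPKM in adenine 1 to 3, against 1.43, 2.25 and 1.45 FPKM in standard 1 to 3. The groups did not overlap, but adenine 3 stood far above the other libraries and the log2 change of 0.88 did not pass (limma adjusted p = 0.14). Col23a1, a transmembrane collagen, was at 2.15, 1.21 and 1.26 FPKM on adenine, against 1.48, 1.69 and 1.37 FPKM on standard diet (log2 change -0.0033, adjusted p = 0.99). With quantile normalization Col23a1 was called lower, at -0.50 (adjusted p = 0.0317, range over the alternatives 0.0317 to 0.994). Col13a1, another transmembrane collagen, was at 0.911, 0.675 and 0.625 FPKM on adenine, against 0.787, 0.589 and 0.462 FPKM on standard diet (log2 change 0.11, limma adjusted p = 0.585). The groups overlapped for Col23a1 and Col13a1.

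The other 12 of the 44 genes were below 0.5 FPKM in mean and were left out of the test. They are Col2a1, Col9a1, Col9a2, Col9a3, Col10a1, Col11a1, Col22a1, Col24a1, Col25a1, Col28a1, Col6a4 and Col6a5. Col9a1, a cartilage chain, was listed at 0 in all 6 libraries, and Col2a1, the main cartilage collagen, had a mean of 0.00829 FPKM. Just inside the threshold were Col19a1 at 0.515 FPKM and Col20a1 at 0.553 FPKM, and just outside were Col24a1 at 0.473 FPKM and Col9a3 at 0.352 FPKM. With no filter, Col28a1, Col10a1 and Col6a5 were also called higher, where 18.2% of the 22768 genes tested were. Col10a1 was at 0, 0.0192 and 0.0388 FPKM in standard 1 to 3. For this gene 3 fragments at the lowest depth correspond to 0.0588 FPKM, above all of these values. Col28a1 was at 0.06 to 0.0839 FPKM on standard diet, near its corresponding value of 0.0428 FPKM.

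Genes that process collagen chains were listed by role. Of 28 tested, 18 rose and 1 fell, or 14 and 4 after median-of-ratios scaling. Over all genes tested, 29.7% rose and 6.84% fell, or 16.8% and 15.2% after that scaling. The 4 lower were thus near the share of all genes. The median log2 change was 0.85, beside 0.25 over all genes. For folding and hydroxylation in the endoplasmic reticulum, 11 of 19 rose and 1 fell. Fkbp10, a chaperone of type I procollagen, was at 19.8, 17.5 and 12.1 FPKM in adenine 1 to 3, against 3.04, 4.25 and 1.82 FPKM in standard 1 to 3 (log2 change 2.14, limma adjusted p = 0.00525). Serpinh1, the collagen chaperone HSP47, was at 164, 166 and 135 FPKM on adenine, against 42.7, 45.4 and 76.0 FPKM on standard diet (log2 change 1.53, limma adjusted p = 0.00712). Both genes were apart between the diets. Tmem38b, an ion channel of the endoplasmic reticulum, averaged 20.6 ± 0.656 FPKM on adenine and 27.1 ± 2.60 FPKM on standard diet (log2 change -0.38, limma adjusted p = 0.0252). The call of Tmem38b ended without each library other than adenine 3 (highest adjusted p = 0.0949, without adenine 2).

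Propeptide removal, which lets fibrillar chains assemble, had 3 of 4 tested genes higher, beside 29.7% of all genes tested. Adamts2, which cuts the amino-terminal propeptide, was at 19.7, 13.5 and 8.16 FPKM in adenine 1 to 3, against 1.59, 1.60 and 1.21 FPKM in standard 1 to 3 (log2 change 2.51, limma adjusted p = 0.00444). Bmp1, which cuts the carboxy-terminal propeptide, was at 26.6, 23.4 and 13.6 FPKM on adenine, against 3.64, 3.59 and 3.22 FPKM on standard diet (log2 change 2.26, limma adjusted p = 0.00405). In both, as in Col3a1 and Col1a1, adenine 1 was the highest library and adenine 3 the lowest on adenine. Over all 4581 genes that rose, adenine 1 was the highest adenine library for 3680 and adenine 3 the lowest for 3771.

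Cross-linking had 4 of 5 genes higher, beside 29.7% of all genes tested. The lysyl oxidase Lox was at 32.5, 31.0 and 19.8 FPKM in adenine 1 to 3, against 6.06, 4.42 and 2.76 FPKM in standard 1 to 3 (log2 change 2.43, limma adjusted p = 0.00443). Its relative Loxl2, which acts on type IV collagen, averaged 12.5 ± 3.15 FPKM on adenine and 2.42 ± 0.522 FPKM on standard diet (SD, n = 3 each, log2 change 1.96, limma adjusted p = 0.0042). Loxl4 did not pass, with a log2 change of 0.27.

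Of 8 collagen receptors tested, 5 rose and none fell, beside 29.7% and 6.84% of all genes tested. After median-of-ratios scaling 4 rose and none fell, beside 16.8% and 15.2%. Without the adjustment 6 had a p under 0.05 upward and none downward, where 39.3% and 10.2% of all genes tested had one. Mrc2, an endocytic receptor that takes up cleaved collagen, averaged 37.6 ± 9.19 FPKM on adenine and 8.71 ± 1.11 FPKM on standard diet (log2 change 1.97, limma adjusted p = 0.00385). Lair1, an inhibitory collagen receptor of leukocytes, averaged 9.01 ± 4.37 FPKM on adenine and 1.77 ± 0.14 FPKM on standard diet (log2 change 1.77, limma adjusted p = 0.00883). The integrin chains Itga1, Itga2 and Itga10 did not pass.

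**Figure D5:**
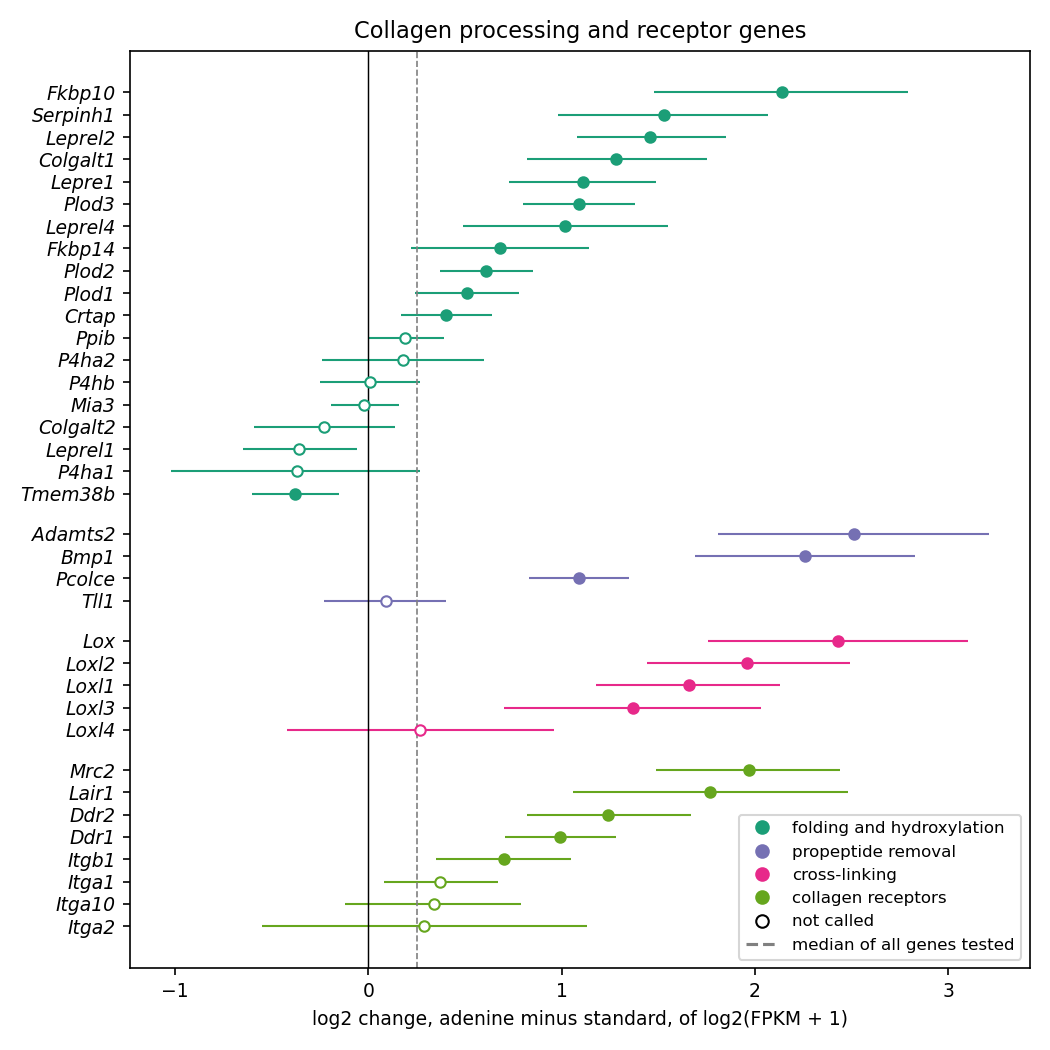
Log2 change (adenine minus standard, on log2(FPKM + 1)) of tested genes for collagen folding and hydroxylation, propeptide removal, cross-linking and collagen receptors. Points are limma estimates with 95% confidence intervals, filled points have an adjusted p under 0.05 and the dashed line is the median of all genes tested. Adamts2, at 2.51, lies farthest to the right and Tmem38b, at -0.38, farthest to the left.

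Markers of cell types moved beside the collagens, and their part in these results was not tested. In whole kidney, more cells of a type and more RNA per cell cannot be told apart. Of 12 mesenchymal markers 11 rose, where 29.7% of all genes tested did. After median-of-ratios scaling 10 rose, beside 16.8% of all genes tested. The summed level of the 12 markers was 440.4 to 758 FPKM on adenine, against 184 to 229.6 FPKM on standard diet. Vim, an intermediate filament, averaged 127 ± 49.8 FPKM on adenine and 27.0 ± 4.83 FPKM on standard diet, and Dcn, a proteoglycan that binds fibrils, averaged 128 ± 27.1 FPKM on adenine and 39.8 ± 6.40 FPKM on standard diet (limma adjusted p = 0.00525 and 0.00416). All 5 leukocyte markers rose (4 after median-of-ratios scaling), with sums of 61.9 to 147 FPKM on adenine, against 13.3 to 14.1 FPKM on standard diet. They were led by the myeloid integrin Itgam (log2 change 3.0) and the macrophage marker Emr1 (log2 change 2.60).

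All 6 podocyte markers rose, beside 29.7% of all genes tested, with sums of 138 to 167 FPKM on adenine, against 91.1 to 101 FPKM on standard diet. With the replicate block 5 were called (Podxl adjusted p = 0.0842), and after median-of-ratios scaling 3, beside 16.8% of all genes tested. The log2 changes were led by Synpo (1.10) and Wt1 (0.83). The call of Wt1 ended without standard 1 (limma adjusted p = 0.0536), without standard 3 (0.0573) and with quantile normalization (0.0684, range over the alternatives 0.014 to 0.0684). Podocytes are the main source of the Col4a3 and Col4a4 chains in the glomerulus, and neither of these chains rose under either scaling. None of 7 endothelial markers was called (limma), with sums of 251 to 269 FPKM on adenine, against 215 to 287 FPKM on standard diet. Without adjustment 1 had a p under 0.05 upward and 1 downward (39.3% and 10.2% of all genes tested). After median-of-ratios scaling 3 were called lower, beside 15.2% of all genes tested. Kdr had the lowest p among them (log2 change -0.33, limma adjusted p = 0.0568, range over the alternatives 0.016 to 0.164).

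None of 6 urothelial markers was called by limma, although 3 had an unadjusted p under 0.05 upward (39.3% of all genes tested), and with the replicate block Upk3a was called higher (adjusted p = 0.0205). Their sums were 32.3, 25.9 and 51.5 FPKM in adenine 1 to 3, against 23.7, 19.3 and 24.5 FPKM in standard 1 to 3, highest in adenine 3 as for Col26a1. Trp63 had the lowest p (log2 change 0.49, adjusted p = 0.062). Of 3 adipose markers tested none was called, and none had an unadjusted p under 0.05. Adipose sums were 5.29, 11.9 and 0.169 FPKM in adenine 1 to 3, against 4.95, 7.63 and 0.099 FPKM in standard 1 to 3, and Adipoq and Lep were listed at 0 in adenine 3 and standard 3. Plin1 had the lowest p (log2 change 0.36, adjusted p = 0.654). All 6 tubular markers were present in every library. Of these 3 fell, beside 6.84% of all genes tested, among them Slc34a1 (log2 change -1.36, limma adjusted p = 0.0287) and Lrp2 (-0.87, 0.0497). After median-of-ratios scaling 3 tubular markers were again lower, beside 15.2% of all genes tested. Umod, a kidney-specific secreted protein of the thick ascending limb, made up most of the summed level of the list. It was at 2888, 3505 and 3486 FPKM on adenine, against 2393, 2636 and 2489 FPKM on standard diet, higher in every adenine library but not called (log2 change 0.39, limma adjusted p = 0.309). Slc12a3 was not called either (0.15, limma adjusted p = 0.52). The sums of the list were 3802 to 5061 FPKM on adenine, against 4477 to 5154 FPKM on standard diet. The calls of Slc34a1 and Lrp2 ended in some alternatives (ranges 0.00863 to 0.0878 and 0.0101 to 0.141).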

How the data were processed

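RNA was taken from whole kidneys and sequenced as paired reads of 100 bp, per the labels' protocols. The submitters' processing notes name bcl2fastq 2.0, TopHat, Cufflinks 2.1.1 and the builds mm10 and GRCm38. Which gene annotation was used is not given in the sources used here. Deposited by the authors were FPKM per gene for the 6 samples, and each column was matched to its sample by diet and number in its name. A further 6 value columns belong to samples not listed and were not used. FPKM hold no counts. Low FPKM fall on steps, from which depth was estimated in genes with 1 transcript over 2000 bp, assuming fragments of 200 bp; 67.9 to 74.4% of values lay within 0.15 of a whole fragment, so no count test was run. Depths are approximate.

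limma 3.58.1 in R 4.3.3 was fitted on log2(FPKM + 1) with an intensity trend and diet as the only term, two-sided, for the 15431 genes whose mean over 6 samples reached 0.5 FPKM. Benjamini-Hochberg adjustment ran over all of them, and the threshold was an adjusted p under 0.05. The pseudocount makes log2 changes of low genes too small, and folds are ratios of mean FPKM. The code was tested on simulated data. Chain ratios and class shares were tested by exact permutation over samples (SciPy 1.17.1), without pairing. Paired by replicate number, the exact sign-flip p was 0.25 for Col1a1 over Col1a2, Col4a3 over Col4a1, and the fibrillar and type IV shares. It was 0.75 for Col4a1 over Col4a2 and 0.5 for Col3a1 over Col1a1.

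Collagen genes, classes and gene lists were chosen with earlier results of these data known. Every collagen above that filter is named. Values in every sample are given for the 4 most abundant and most changed of each class and for those not called where most of the class was. In each list up to 2 called rises and 2 called falls are named, or the gene with the lowest p where none was called. The choice of any other gene named followed its values. A few markers of the lists are not reported here and enter no count or sum. List symbols were matched through RefSeq synonyms. Promoter sequences are from RefSeq (GRCm38.p6), and all 44 collagen identifiers were found in GENCODE M21 (GRCm38).

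Libraries of both diets are numbered alike. Their deviations from group means correlated at 0.257, 0.143 and 0.181 between equal numbers, and at -0.187 to 0.038 between different ones. Deviations cancel within a group, so a positive correlation at equal numbers lowers the others. The main test did not use the numbers, and pairing by number was fitted as a replicate block in alternatives. The pairing rests on these correlations alone, and no label gives it. Alternatives were pseudocounts of 0.1 and 0.5, no filter, a mean of at least 5 FPKM, median-of-ratios scaling (size factors 1.05 to 1.19 for adenine, 0.861 to 0.94 for standard), quantile normalization, no variance trend, the replicate block, the block with that scaling, and the omission of each library.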

Additional observations from a re-analysis of the deposited data

How the results depend on the processing

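Of the 22 collagens called, 17 were called in every alternative that tested them. The exceptions were Col7a1, Col14a1, Col17a1, Col19a1 and Col20a1. The count of higher collagens ranged from 15 with a mean of at least 5 FPKM, where fewer genes are tested, to 24 with no filter. Leaving out 1 library gave 17 (without adenine 2) to 21. With the replicate block 20 were higher and 1 lower, where 4825 and 1132 of all 15431 genes tested were. Apart from Col20a1 and the podocyte marker Podxl (limma adjusted p = 0.0842) the block ended no call described. The shares of all genes were not counted for the filter at 5 FPKM, quantile normalization or the omission of a library. The count of lower collagens was 0 with a mean of at least 5 FPKM, 3 with median-of-ratios scaling, 2 with quantile normalization, and 0 to 2 on leaving out a library (0 without adenine 2 or any of the standard libraries, 2 without adenine 3). Without any 1 of the standard libraries Col19a1 has a mean below 0.5 FPKM and is not tested, so those counts of 0 leave it out. Higher network chains were 3 with a mean of at least 5 FPKM. Higher chains of other types were 5 with that filter, 5 with the block and median-of-ratios scaling together, and 4 to 8 on leaving out a library (4 without adenine 2, 5 without standard 2 or standard 3). The log2 difference of Col1a1 over Col1a2 became 1.19 with a pseudocount of 1 in each chain, and that of Col4a1 over Col4a2 ranged from -0.139 to 0.0142, turning positive without standard 3. The cause of these differences was not tested.

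Genes that were not called changed sign as follows. With median-of-ratios scaling, with or without the block, log2 changes were -0.03 for Col4a6, -0.0013 for Col4a5, -0.19 for Col27a1 and -0.01 for Col13a1. With quantile normalization they were -0.32 for Col4a6, -0.25 for Col27a1, -0.29 for Col13a1, -0.17 for Col11a2 and -0.06 for Plin1. On leaving out a library they ranged from -0.13 (without standard 3) to 0.42 for Col4a6, from -0.01 (without adenine 1, and -0.00041 without standard 3) to 0.21 for Col27a1, from -0.17 to 0.09 for Col23a1 (positive without adenine 2, adenine 3 or standard 2), and from -0.18 (without adenine 2, and -0.01 without standard 3) to 0.93 for Plin1. Depth limits genes near 3 fragments, such as Col2a1, Col9a2 and, on standard diet, Col10a1.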
